A study of Mus musculus with 20 samples.

Results

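The serpins are the family of genes whose array name starts with Serpin. They were read in the liver of mice that had or lacked the liver X receptors (LXR), on chow or on a Western diet. The family had 73 of the 41174 probes of the array, for 55 of its 27845 gene names (37 with 1 probe and 18 with 2). Their values came from 20 male mice aged 28 weeks on a mixed Sv129/C57Bl6J background, 5 per group, each with its own liver RNA and its own single-colour array. Wild-type mice and LXR alpha/beta double knockout mice (LXR-/-) ate normal chow or Western diet (a cocoa butter diet) for 7 weeks. The 4 groups were thus wild-type on chow, knockout on chow, wild-type on Western diet and knockout on Western diet. The labels name no tissue-restricted driver for the deletion, and the RNA came from a piece of the large lobe. Probes lie on build mm8 by the coordinates of the array files. No exon or intron annotation of that build was used here.

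Most serpins inhibit serine proteases. The protease cuts an exposed loop of the serpin, the serpin snaps into a more stable fold, and the enzyme stays trapped. Clades are lettered by descent: clade A holds the secreted relatives of alpha-1-antitrypsin and antichymotrypsin, clade B holds mostly intracellular members, and clades C to G hold plasma and tissue inhibitors of coagulation, fibrinolysis and complement. Hepatocytes make most plasma serpins, and the mouse has extra copies of the antitrypsin (Serpina1) and antichymotrypsin (Serpina3) genes. Some members inhibit no protease and carry hormones or fold collagen instead.

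A value is the log2 of the processed signal minus the log2 of the 75th percentile of its array, so 0 is the level of that percentile and 1 unit is a factor of 2. Values of different probes were not set against each other, since probes differ in how brightly they light up. The 75th percentile was 332.2 to 431.9 intensity units on the 5 arrays of knockouts on Western diet and 167.6 to 326.7 on the other 15, and 53.6% to 67.11% of probes per array were well above background. Replicate arrays of a group correlated with r of 0.9507 to 0.9892 across probes. The deleted genes matched the labels: the knockout minus wild-type difference of Nr1h3 (LXR alpha) was -9.04 ± 0.29 (SE) on chow and -8.95 ± 0.29 on Western diet, and that of Nr1h2 (LXR beta) was -5.38 ± 0.31 on each diet. The mean level of 17 hepatocyte markers was 6.28 to 7.63 on all 20 arrays, so the markers of the labelled tissue were present. In whole liver, fewer cells of a type and less RNA per cell cannot be told apart.

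Of the 73 probes, 46 probes of 36 genes were bright enough to test (in some group, 4 or 5 of the 5 arrays called the spot well above background). A member is said to have risen or fallen where limma gave an adjusted p (Benjamini-Hochberg over all probes tested) under 0.05. Under LXR loss on Western diet 14 of the 46 tested serpin probes rose and 22 fell, 78.3% in all, where 57.8% of all 26121 probes with a value in that comparison were called. The Western diet in knockouts gave 10 that rose and 23 that fell, 71.7%, against 50.3% of all probes (21.5% rose and 28.7% fell). LXR loss on chow gave 8 that rose and 2 that fell, 21.7%, against 18.4% of all probes (10.3% rose and 8.13% fell). The Western diet in wild-type mice gave 0 that rose and 5 that fell, 10.9%, against 5.1% of all probes (2.61% rose and 2.49% fell). With an unadjusted threshold of 0.05, the count that rose there was 4. The change with diet differed between the genotypes (the interaction) for 26 of 46 probes, 9 upward and 17 downward, 56.5% against 26.3% of all probes (11.9% upward and 14.4% downward). The comparisons share groups, so their counts are not independent. Among the 14, both Serpinb2 probes, Serpinb10 and Serpini1 were bright enough to test only through knockouts. Among the 22, the second Serpina5 probe was tested only through wild-type mice on Western diet. Both Serpinb2 probes were also among the 10 that rose with diet in knockouts and the 9 upward interactions. Serpini1 was also among the 8 that rose on chow, and the second Serpina5 probe among the 17 downward interactions. The filter fixed the direction of these probes in those comparisons, so the counts beside the shares of all probes are a description.

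The direction split by clade, as the plot of differences shows. On Western diet LXR loss lowered 15 of 22 tested clade A probes and raised 4, where 33.8% of all probes fell and 24% rose. All 7 tested probes of clades C, D, F and G were called lower (Serpinc1, Serpind1, Serpinf1, Serpinf2 and Serping1), 1 of them a Serpinc1 probe saturated on 18 of 20 arrays. In clade B 7 of 13 tested probes rose and 0 fell; at an unadjusted p under 0.05, 0 fell. Of those 7, both Serpinb2 probes and Serpinb10 were bright enough to test only because of the knockouts on Western diet, so that filter fixed their direction, and the count is a description. Serpinh1 and Serpini1 rose as well. The median difference in this comparison was -1.34 over clade A, against -0.17 over all probes tested.

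**Figure D1:**
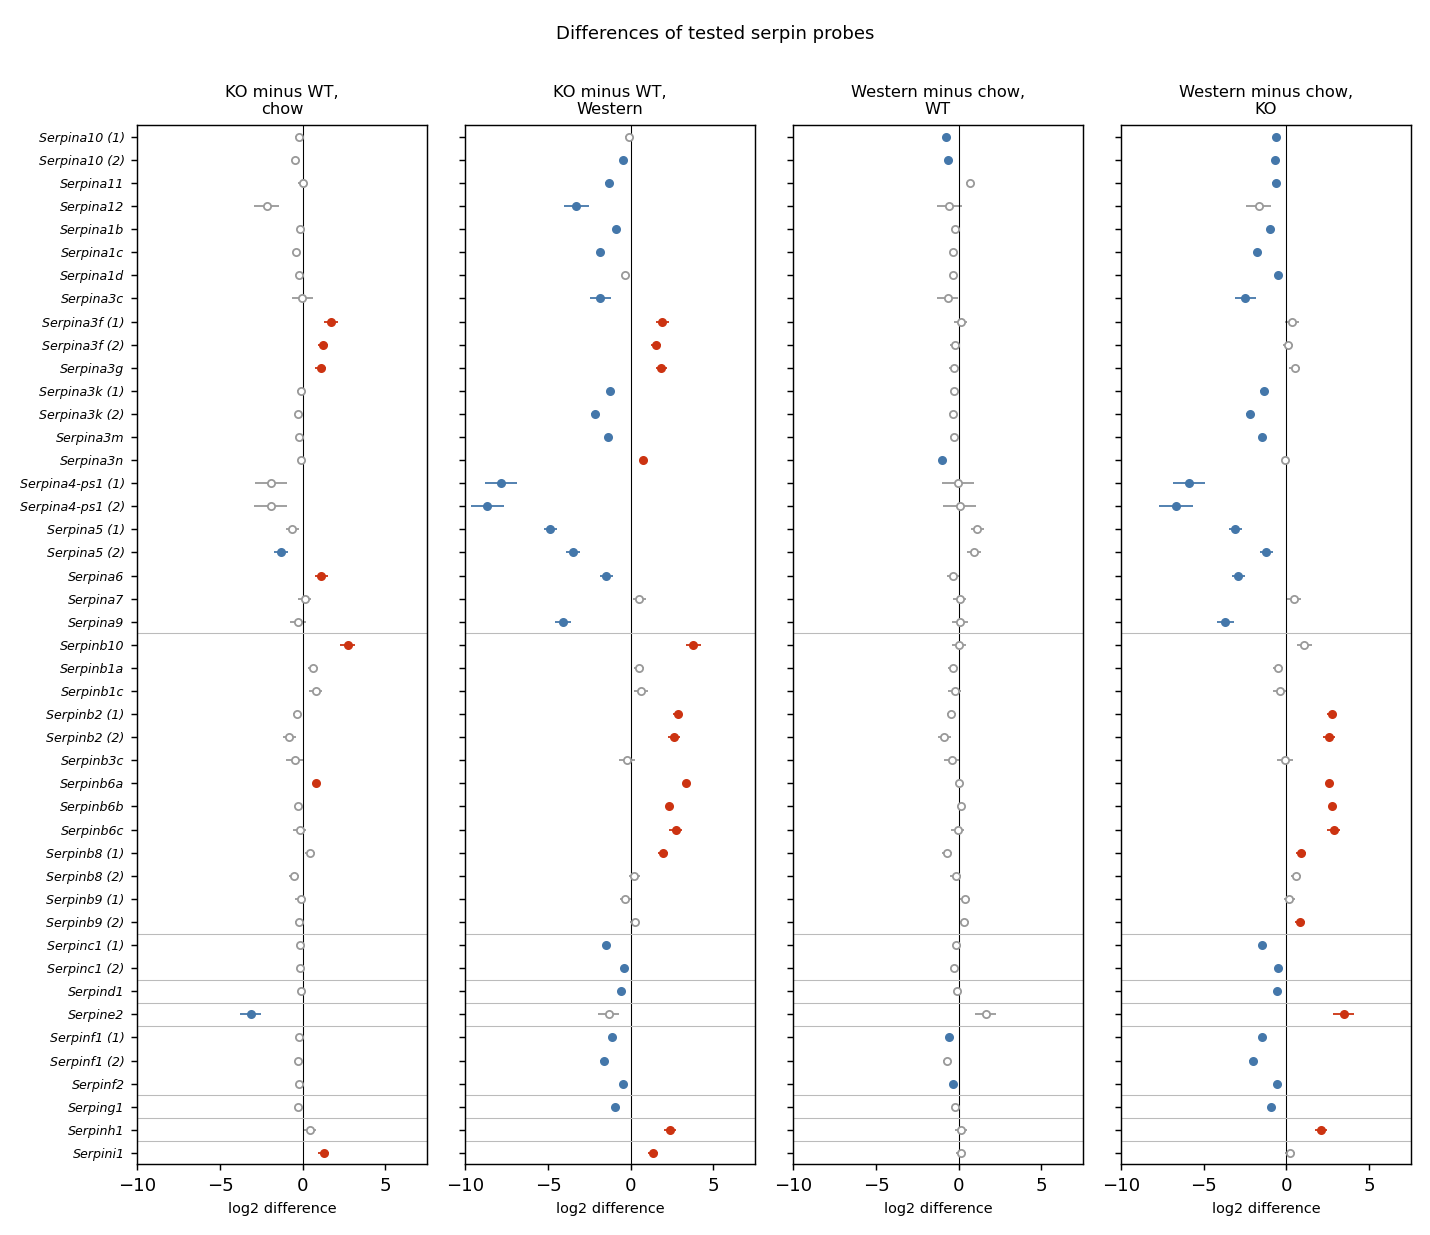
Each row is a serpin probe, ordered by clade with grey lines between clades, and each panel is a comparison. The x axis is the difference in log2 signal with its standard error; red marks a rise and blue a fall at adjusted p under 0.05 (limma), and open grey points were not called. In the Western-diet genotype panel most clade A, C, D, F and G points lie left of 0 and the called clade B, H and I points right of it.

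Serpine2, protease nexin 1, inhibits thrombin, urokinase and plasmin at cell surfaces (chr1:79675925-79678542, coordinates longer than a probe, as for one that crosses an intron, minus strand). On chow, Serpine2 read -1.02, -2.03, -3.97, -4.59 and -3.92 in the 5 wild-type mice and -5.41, -7.01, -6.4, -6.73 and -5.7 in the 5 knockouts. On Western diet, Serpine2 read -0.26, -0.51, -2.53, -1.1 and -2.95 in wild-type mice and -2.9, -1.89, -2.68, -3.66 and -2.81 in knockouts. Knockouts on chow were the lowest group, with 0 of 5 arrays above background and no overlap with any other group. The wild-type mice on chow were split, with mice 1 and 2 above mice 3 to 5. Where a probe was dim on every array of a group, the fold is a lower bound, taken against the lowest signal well above background on each array or the probe's own signal, whichever was higher. LXR loss lowered Serpine2 at least 3.66-fold on chow (adjusted p = 0.00187, limma), and the Western diet raised it at least 4.57-fold in knockouts (adjusted p = 0.000187). On Western diet the genotype difference was -1.32 ± 0.64 (adjusted p = 0.0845); it was -1.75 with slide as a fixed block (adjusted p = 0.0102) and -1.44 as a random block (adjusted p = 0.038), and negative on each of 4 slides. Normexp, a model of the local background of each spot, was tried plain and fitted without outlier spots. The chow call ended with plain normexp and in the deposited series matrix, and the diet call with both normexp corrections.

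The enzymes that Serpine2 and its relatives act on were measured in a list of 31 genes of coagulation and fibrinolysis, 30 of them tested. On Western diet LXR loss raised 6 and lowered 17 of the 30, where 24% of all probes rose and 33.8% fell. The median difference was -0.42 against -0.17 over all probes, and 6 of the 30 probes had saturated spots. The 6 that rose included members of the plasminogen activation system, among them Plaur, the urokinase receptor, by 5.4 ± 0.26 (adjusted p = 1.63e-11, limma) and Plat, tissue plasminogen activator, by 4.05 ± 0.37 (adjusted p = 4.69e-08). Plau, urokinase, was above background on 5 of 5 arrays of knockouts on Western diet and on 0 of 5 in every other group. Plasminogen itself (Plg) fell by 1.02 ± 0.17 (adjusted p = 5.64e-05). Macrophage markers moved with these genes, 16 of 22 rising and 5 falling on Western diet, and the mean level of the list was -0.72 to 0.87 in wild-type mice and 1.75 to 2.15 in knockouts. Among 20 stellate cell and fibroblast markers 15 rose and 2 fell, with a mean level of -0.5 to 0.34 against 1.17 to 1.99. Serpine2 did not rise in that comparison but with diet in knockouts. There 16 of the 22 macrophage markers rose and 1 fell, and 12 of the 20 stellate cell and fibroblast markers rose and 3 fell. Of all probes 21.5% rose and 28.7% fell with diet in knockouts. The part of these markers in the diet rise of Serpine2 was not tested.

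Serpinh1, or HSP47, is the collagen chaperone of the endoplasmic reticulum and inhibits no protease (chr7:99219542-99219603, minus strand). On chow, Serpinh1 read 1.54, 0.82, 1.5, 1.67 and 1.18 in the 5 wild-type mice and 1.92, 0.91, 1.74, 2.3 and 1.93 in the 5 knockouts. On Western diet, Serpinh1 read 2.47, 2.16, 0.42, 1.66 and 0.65 in wild-type mice and 3.5, 4.4, 4.23, 3.09 and 4.12 in knockouts. All 5 knockouts on Western diet lay above all 15 other mice, which overlapped with each other. LXR loss on Western diet raised Serpinh1 by 2.4 ± 0.37 (adjusted p = 2.12e-05, limma), 5.26-fold, and the diet raised it in knockouts by 2.11 ± 0.37 (adjusted p = 0.000112). On chow the genotype difference was 0.42 ± 0.37 (adjusted p = 0.462), and the interaction was 1.98 ± 0.52 (adjusted p = 0.00879). These 3 calls held under every alternative processing tried.

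Collagens are its clients, and in the same comparison 16 of 22 collagens and collagen-modifying enzymes rose and 3 fell, with a median difference of 2.65. Col1a1, the main chain of type I collagen, rose by 5.41 ± 0.47 (adjusted p = 2.95e-08, limma), and the cross-linking enzyme Lox by 4.9 ± 0.45 (adjusted p = 4.75e-08). The genes that hydroxylate collagen chains did not move together: Plod2 rose by 3.2 ± 0.26 (adjusted p = 9.27e-09), and Plod1 fell by 1.61 ± 0.18, P4ha2 by 1.06 ± 0.22 and P3h1 by 0.58 ± 0.2. Serpinh1 is also known as a heat shock gene, and of 15 genes of the heat shock response 8 fell and 0 rose in that comparison. Their median difference was -0.68, where 33.8% of all probes fell. Hspb1 fell by 2.55 ± 0.4 (adjusted p = 2.62e-05), and the inducible Hspa1a differed by -0.3 ± 0.89 (adjusted p = 0.79). Of 17 tested chaperones and degradation genes of the endoplasmic reticulum 7 fell, near the 33.8% of all probes.

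**Figure D2:**
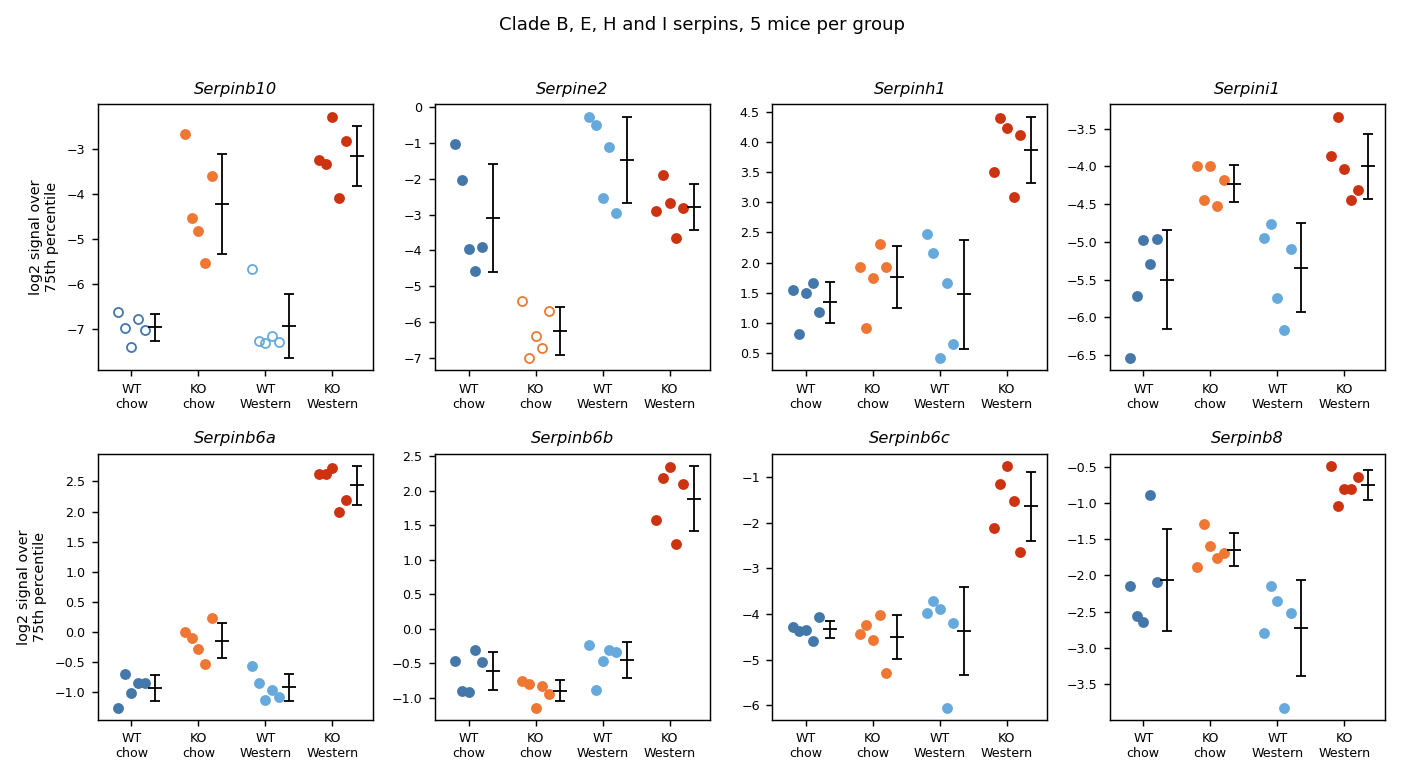
Each point is a mouse, the y axis is log2 signal over the 75th percentile of the array, and bars give the mean and SD of 5 mice per group; open points mark groups with 0 of 5 arrays well above background. Serpinb10, Serpinh1 and the Serpinb6 genes had their highest group mean in knockouts on Western diet, while Serpine2 was lowest in knockouts on chow.

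Clade B serpins work inside cells, where they protect against proteases released from granules and lysosomes. Serpinb6a is an inhibitor of cathepsin G and other granule proteases (chr13:33926250-33926309, minus strand), and Serpinb6b and Serpinb6c are its mouse paralogs (chr13:32986336-32986395, plus strand, and chr13:33888198-33888256, minus strand). On chow, Serpinb6a read -1.26, -0.7, -1.02, -0.85 and -0.85 in the 5 wild-type mice and -0.01, -0.11, -0.29, -0.54 and 0.23 in the 5 knockouts. On Western diet, Serpinb6a read -0.57, -0.85, -1.14, -0.97 and -1.09 in wild-type mice and 2.63, 2.63, 2.72, 2 and 2.19 in knockouts. The knockouts on Western diet were the highest group without overlap, and knockouts on chow lay above all wild-type mice. LXR loss raised Serpinb6a by 0.79 ± 0.17 on chow (adjusted p = 0.00278, limma) and by 3.36 ± 0.17, 10.3-fold, on Western diet (adjusted p = 3.2e-11), the smallest adjusted p of the family. Median scaling and plain normexp each ended the chow call. Diet raised it in knockouts by 2.58 ± 0.17 (adjusted p = 1.62e-09) and gave 0.01 ± 0.17 in wild-type mice (adjusted p = 0.982). These values are from the tested Serpinb6a probe. The other Serpinb6a probe was above background on no array and was not tested.

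On chow, Serpinb6b read -0.47, -0.9, -0.91, -0.31 and -0.48 in the 5 wild-type mice and -0.76, -0.8, -1.14, -0.82 and -0.94 in the 5 knockouts. On Western diet, Serpinb6b read -0.24, -0.89, -0.47, -0.3 and -0.33 in wild-type mice and 1.57, 2.19, 2.34, 1.23 and 2.1 in knockouts. In this paralog the 3 other groups overlapped, and only knockouts on Western diet stood above them. On Western diet the genotype difference was 2.33 ± 0.19 (adjusted p = 1.55e-08, limma), and on chow it was -0.28 ± 0.19 (adjusted p = 0.343). Diet raised Serpinb6b in knockouts by 2.78 ± 0.19 (adjusted p = 3.56e-09). On chow, Serpinb6c read -4.29, -4.38, -4.35, -4.58 and -4.06 in the 5 wild-type mice and -4.43, -4.23, -4.57, -4.03 and -5.29 in the 5 knockouts. On Western diet, Serpinb6c read -3.98, -3.72, -3.89, -6.05 and -4.2 in wild-type mice and -2.11, -1.16, -0.76, -1.53 and -2.65 in knockouts. Wild-type mouse 4 on Western diet was the lowest, and knockouts on Western diet again formed the only group without overlap. Serpinb6c rose by 2.73 ± 0.39 with LXR loss on Western diet (adjusted p = 1.13e-05) and by 2.87 ± 0.39 with diet in knockouts (adjusted p = 8.97e-06). The interactions were 2.57 ± 0.24, 2.62 ± 0.27 and 2.91 ± 0.56 for Serpinb6a, Serpinb6b and Serpinb6c (adjusted p = 8.48e-07, 3.21e-06 and 0.000888). The Serpinb6c calls were lost with plain normexp, where the Western-diet difference was 0.57.

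Serpinb8, an inhibitor of furin-like proteases, gave different results by probe. On chow, the Serpinb8 probe with the longer span read -2.14, -2.56, -2.65, -0.89 and -2.09 in the 5 wild-type mice and -1.88, -1.29, -1.59, -1.76 and -1.69 in the 5 knockouts. On Western diet, that probe read -2.8, -2.14, -2.36, -3.83 and -2.52 in wild-type mice and -0.49, -1.04, -0.8, -0.8 and -0.64 in knockouts. All knockouts lay above all wild-type mice on Western diet and overlapped them on chow. The probe rose by 1.98 ± 0.3 with LXR loss on Western diet (adjusted p = 2.15e-05, limma) and by 0.89 ± 0.3 with diet in knockouts (adjusted p = 0.0209). The other Serpinb8 probe differed by 0.23 ± 0.31 (adjusted p = 0.544) and 0.59 ± 0.31 (adjusted p = 0.124) in those comparisons. Serpinb9, the inhibitor of granzyme B, also had probes that differed: with diet in knockouts they gave 0.81 ± 0.28 (adjusted p = 0.0235) and 0.18 ± 0.32 (adjusted p = 0.659). The Serpinb9 call was lost in 6 of 35 alternatives and changed sign in 1.

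Serpinb2 (plasminogen activator inhibitor 2) was seen above background only in knockouts on Western diet, on 5 of 5 arrays with the first probe and 4 of 5 with the second. On chow, Serpinb2 gave -6.61, -6.98, -6.39, -6.77 and -6.98 in the 5 wild-type mice and -7.28, -7.22, -7.03, -6.4 and -7.51 in the 5 knockouts. On Western diet, Serpinb2 gave -6.99, -7.3, -7.3, -7.09 and -7.26 in wild-type mice and -4.94, -4.82, -3.07, -4.53 and -4.33 in knockouts. Its second probe gave -5.15, -5.37, -2.95, -4.85 and -4.55 in knockouts on Western diet, and mouse 3 was the highest with each probe. Against wild-type mice on Western diet the rise was at least 1.64-fold and at least 1.4-fold by probe (adjusted p = 9.25e-08 and 1.27e-05, limma). Both calls ended with either normexp correction, at -0.12 for each probe with the plain one and 0.1 for each with the added one. Serpinb10, known from bone marrow cells, was above background on 0 of 10 wild-type arrays, 3 of 5 knockout arrays on chow and 5 of 5 on Western diet. That holds for the tested probe only. The other Serpinb10 probe was above background on no array and was not tested. On chow, Serpinb10 gave -6.63, -6.99, -7.42, -6.78 and -7.03 in the 5 wild-type mice and -2.67, -4.53, -4.82, -5.53 and -3.6 in the 5 knockouts. On Western diet, Serpinb10 gave -5.66, -7.27, -7.31, -7.16 and -7.29 in wild-type mice and -3.25, -3.33, -2.27, -4.09 and -2.82 in knockouts. No knockout overlapped a wild-type mouse on the same diet. LXR loss raised Serpinb10 at least 1.41-fold on chow (adjusted p = 0.000314) and at least 3.74-fold on Western diet (adjusted p = 1.15e-06). The chow call was lost under both normexp corrections and the Western-diet call under plain normexp. Serpinb2 and Serpinb10 were bright enough to test only through knockouts on Western diet. That filter fixed the direction of their rises there, so these adjusted p values are a description.

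The remaining tested clade B probes, Serpinb1a, Serpinb1c and Serpinb3c (a probe the files tie to no RefSeq entry), passed the threshold in none of the 5 comparisons by limma. Their smallest adjusted p values were 0.146, 0.201 and 0.531. Of 18 leukocyte serine and cysteine proteases, the targets of many clade B members, 14 were tested. With LXR loss on Western diet 5 rose and 0 fell, where 24% of all probes rose and 33.8% fell. The median difference of the list was 0.14. Those that rose were the cathepsins Ctsb, Ctsc, Ctsk, Ctss and Ctsz, with Ctsk by 7.33 ± 0.39 (adjusted p = 6.32e-11) and Ctss by 4.15 ± 0.38 (adjusted p = 8.23e-08). Ctsg, the cathepsin that Serpinb6a inhibits, differed by -0.05 ± 0.39 (adjusted p = 0.913), and granzyme B (Gzmb) by -0.29 ± 0.65 (adjusted p = 0.727). Of 11 tested neutrophil markers 10 rose, and their mean level was -4.33 to -2.11 in wild-type mice and -1.38 to 0.26 in knockouts on Western diet. Of 11 tested cholangiocyte markers 8 rose and 0 fell, and of 8 tested mesothelial markers 4 rose and 0 fell. Among 13 tested T, B and NK cell markers 3 rose and 3 fell. The part of these lists and of the macrophage markers above in the clade B rise was not tested.

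The Serpina3 genes descend from antichymotrypsin and lie next to each other on chromosome 12. With LXR loss on Western diet Serpina3f, Serpina3g and Serpina3n rose, while Serpina3c, Serpina3k and Serpina3m fell. The promoters of Serpina3c, Serpina3g and Serpina3n are printed because these neighbours went in different directions; those of Serpinb6b and Serpinb6c because the genes rose together. Each run is the 250 bases before the start of the gene from RefSeq, build GRCm38.p6, read 5′ to 3′ on the strand of the gene. The window of Serpina3c lies at chr12:104153873-104154122, minus strand, that of Serpina3n at chr12:104406458-104406707, plus strand and that of Serpina3g at chr12:104235897-104236146, plus strand. The window of Serpinb6b lies at chr13:32965011-32965260, plus strand and that of Serpinb6c at chr13:33905192-33905441, minus strand. In Serpina3c and Serpina3n capitals mark the 21 bases of each that do not match in an alignment of the pair; in Serpina3g they mark a match to TTCNNNGAA, the STAT palindrome.
Serpina3c: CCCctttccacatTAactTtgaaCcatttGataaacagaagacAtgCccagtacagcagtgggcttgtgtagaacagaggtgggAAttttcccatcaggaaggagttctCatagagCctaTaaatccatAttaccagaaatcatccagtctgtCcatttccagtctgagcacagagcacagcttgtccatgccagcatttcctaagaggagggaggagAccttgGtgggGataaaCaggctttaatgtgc
Serpina3n: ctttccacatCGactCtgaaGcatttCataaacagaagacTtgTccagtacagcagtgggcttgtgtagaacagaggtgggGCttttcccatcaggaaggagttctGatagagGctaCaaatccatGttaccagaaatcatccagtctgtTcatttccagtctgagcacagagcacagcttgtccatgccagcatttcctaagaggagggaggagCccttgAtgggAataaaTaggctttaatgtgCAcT
Serpina3g: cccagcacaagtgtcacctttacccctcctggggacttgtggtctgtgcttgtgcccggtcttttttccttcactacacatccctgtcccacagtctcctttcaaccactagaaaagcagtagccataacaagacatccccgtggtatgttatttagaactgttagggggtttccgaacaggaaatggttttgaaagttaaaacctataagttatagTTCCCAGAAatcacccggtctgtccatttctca
Serpinb6b: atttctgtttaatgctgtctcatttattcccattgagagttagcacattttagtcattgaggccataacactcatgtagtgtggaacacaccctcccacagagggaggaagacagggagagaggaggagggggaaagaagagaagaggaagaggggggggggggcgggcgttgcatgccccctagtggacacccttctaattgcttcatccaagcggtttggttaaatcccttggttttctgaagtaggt
Serpinb6c: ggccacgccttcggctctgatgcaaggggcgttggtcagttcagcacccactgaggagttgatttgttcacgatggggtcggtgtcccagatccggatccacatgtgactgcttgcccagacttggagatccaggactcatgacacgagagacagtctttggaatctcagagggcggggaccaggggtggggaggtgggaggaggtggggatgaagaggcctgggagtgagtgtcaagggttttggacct

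The Serpina3c and Serpina3n windows were 90.5% identical (229 of 253 aligned positions), while with LXR loss on Western diet Serpina3c fell and Serpina3n rose. Every other pair of the 5 windows was 44.7% to 51.3% identical, Serpinb6b and Serpinb6c included at 45.9%. Windows were aligned end to end, so sequence shared at different distances from the start can be missed. The last bases of the Serpina3g window, with its capitals, resemble a stretch further upstream in Serpina3c and Serpina3n. The low identity of Serpina3g thus does not show that it shares no promoter sequence with them. The STAT palindrome lay at -33 from the start in Serpina3g, and TATAAA lay at -132 in Serpina3c. The windows of 45 of the 55 serpin genes were in the table, with 53 starts, and 6 motifs were searched on both strands. TTCNNNGAA was in 17% of serpin starts and 7.02% of all 32851 starts. TATAAA was in 32.1% and 12.4%, the nuclear receptor half-site AGGTCA in 28.3% and 14%, and the SMAD box CAGACA in 18.9% and 17.1%. The heat shock element was in 0 of 53 serpin starts and 0.466% of all, and CACGTG in 0 of 53 and 6.02%. Paralogs share sequence, so these starts are not independent, and a match is only a description of letters.

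On chow, Serpina3n read 4.26, 4.78, 3.67, 4.18 and 3.98 in the 5 wild-type mice and 3.74, 4, 4.07, 4.02 and 4.6 in the 5 knockouts. On Western diet, Serpina3n read 3.44, 2.88, 3.12, 3.39 and 3.19 in wild-type mice and 4.08, 3.69, 4.31, 3.88 and 3.93 in knockouts. Serpina3n codes for a secreted acute phase inhibitor of chymotrypsin-like proteases (chr12:104814758-104814817, plus strand). Wild-type mice on Western diet were the lowest group without overlap, and the other 3 groups overlapped. Diet lowered Serpina3n in wild-type mice by 0.97 ± 0.19 (adjusted p = 0.00448, limma) and gave -0.11 ± 0.19 in knockouts (adjusted p = 0.655); the interaction was 0.86 ± 0.27 (adjusted p = 0.0236). The genotype difference was 0.77 ± 0.19 on Western diet (adjusted p = 0.00191) and -0.09 ± 0.19 on chow (adjusted p = 0.783). Median scaling and plain normexp each ended the diet call and the interaction, and so did leaving out knockout mouse 3 on Western diet for the interaction.

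On chow, Serpina3g read 0.74, 1.21, 0.73, 0.76 and 0.74 in the 5 wild-type mice and 2.57, 1.67, 1.69, 0.87 and 2.89 in the 5 knockouts. On Western diet, Serpina3g read 1.31, 0.8, 0.24, 0.52 and 0 in wild-type mice and 2.58, 2.86, 2.65, 1.61 and 2.47 in knockouts. Serpina3g is an intracellular cysteine protease inhibitor known from lymphoid and myeloid cells (chr12:104642885-104642944, plus strand). On chow knockout mouse 4 lay inside the wild-type range and the others above it, and on Western diet the genotypes did not overlap. LXR loss raised it by 1.1 ± 0.33 on chow (adjusted p = 0.0241, limma) and by 1.86 ± 0.33 on Western diet (adjusted p = 9.06e-05). The chow call was lost with median scaling, under both normexp corrections and without knockout mouse 1 or 5. Serpina3f, its neighbour at chr12:104621804-104621863, read -4.59, -2.61, -4.28, -3.75 and -4.2 in wild-type mice and -1.52, -2.13, -2.65, -3.31 and -1.25 in knockouts on chow with its first probe. On Western diet that Serpina3f probe read -2.65, -3.77, -4.15, -3.79 and -4.38 in wild-type mice and -1.4, -1.86, -1.81, -2.28 and -1.84 in knockouts. Wild-type mouse 2 on chow overlapped the knockouts, and on Western diet no mouse did. Serpina3f rose by 1.72 ± 0.4 and 1.24 ± 0.32 by probe on chow (adjusted p = 0.00605 and 0.0113) and by 1.91 ± 0.4 and 1.55 ± 0.32 on Western diet (adjusted p = 0.000552 and 0.000447). Both normexp corrections ended the chow calls, plain normexp also ended the Western-diet calls (0.25 and 0.05), and on 1 of 4 slides the within-slide chow difference was -0.04.

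On chow, Serpina3c read 5.76, 5.72, 5.72, 4.1 and 3.78 in the 5 wild-type mice and 4.17, 5.15, 5.63, 6.33 and 3.74 in the 5 knockouts. On Western diet, Serpina3c read 3.86, 3.83, 5.88, 2.94 and 5.25 in wild-type mice and 2.54, 2.52, 2.39, 3.93 and 1.2 in knockouts. Mice of each group were widely spread, and on Western diet knockout mouse 4 lay inside the wild-type range while the other 4 knockouts lay below it. LXR loss on Western diet lowered Serpina3c by 1.83 ± 0.62 (adjusted p = 0.0173, limma), and diet lowered it in knockouts by 2.49 ± 0.62 (adjusted p = 0.00277). The genotype call was lost with plain normexp and without wild-type mouse 3 or knockout mouse 5 on Western diet. Serpina3k and Serpina3m, secreted by hepatocytes, were so bright that spots saturated, meaning the scanner's upper limit was reached. The second Serpina3k probe (chr12:104746485-104746544) was saturated on 14 of 15 arrays outside the knockouts on Western diet and on 0 of 5 inside. It read 8.08, 8.06, 7.92, 8.24 and 8.01 in wild-type mice on Western diet and 6.4, 5.35, 5.2, 6.88 and 5.68 in knockouts, with no overlap. The fall with LXR loss on Western diet was at least 4.47-fold (adjusted p = 4.98e-07), and by the first probe it was 1.23 ± 0.22 (adjusted p = 8.59e-05) with 4 of 5 wild-type arrays saturated. With saturated spots left out the first probe was not called (adjusted p = 0.0581). Serpina3m fell at least 2.58-fold in that comparison (adjusted p = 1.41e-05), from 7.92, 7.65, 7.6, 7.94 and 7.78 to 6.53, 6.15, 6.04, 7.26 and 6.07, with 5 of 5 wild-type arrays saturated. Serpina3a and Serpina3b were above background on 2 and 1 of 20 arrays and were not tested. Among 22 acute phase genes, a list without Serpina3n, 7 rose and 3 fell with LXR loss on Western diet, where 24% of all probes rose and 33.8% fell. With diet in knockouts 5 rose and 7 fell, near the 21.5% and 28.7% of all probes.

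**Figure D3:**
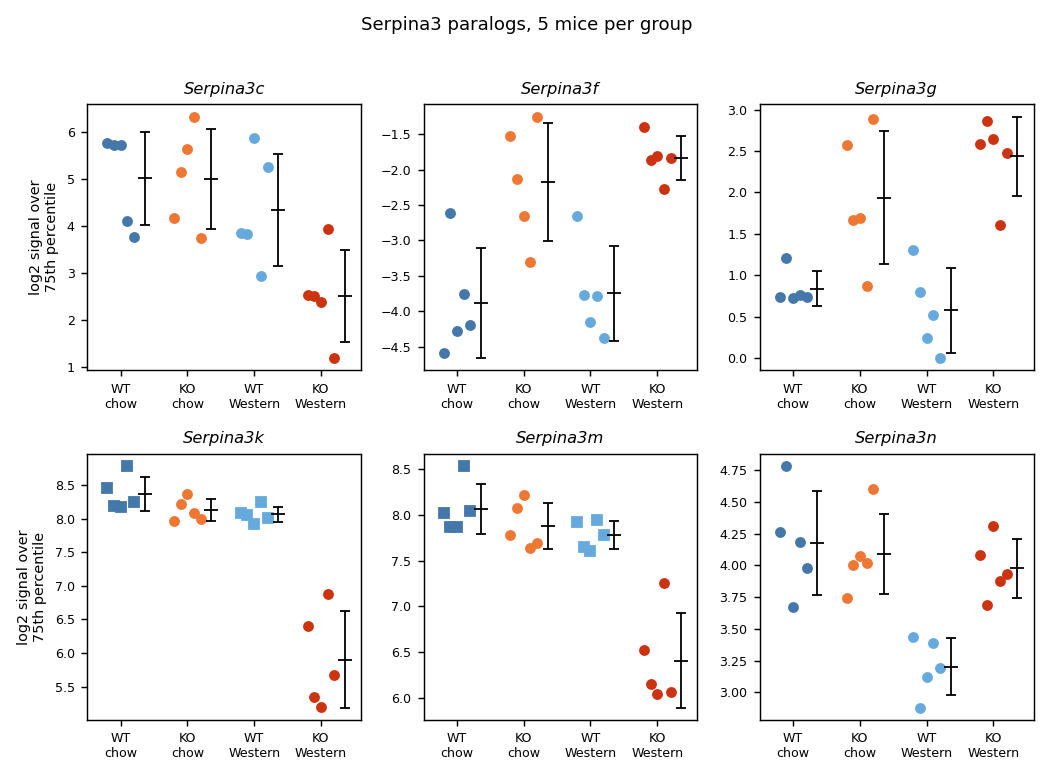
Each point is a mouse, the y axis is log2 signal over the 75th percentile of the array, and bars give the mean and SD of 5 mice per group; squares mark groups saturated on 5 of 5 arrays. Serpina3f and Serpina3g were higher in knockouts on Western diet than in wild-type mice, Serpina3c, Serpina3k and Serpina3m were lower, and Serpina3n was lowest in wild-type mice on Western diet.

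The Serpina1 genes code for alpha-1-antitrypsin, the main plasma inhibitor of neutrophil elastase. Their copies are nearly alike, and the probes do not separate them: by the RefSeq entries in the files, the probe named Serpina1c also lists Serpina1b, Serpina1d and Serpina1e, and the probe named Serpina1d also lists Serpina1c and Serpina1e. The probe named Serpina1b lists no RefSeq entry, so the copy it reads is not shown. The Serpina1d probe was saturated on all 20 arrays, so no fold can be given. Its unscaled mean log2 signal was 16.31, 16.29, 16.27 and 16.26 in wild-type and knockout mice on chow and on Western diet. Scaling turned this near-constant signal into 8.48, 8.28, 8.15 and 7.79, as the 75th percentile subtracted was higher on the arrays of knockouts on Western diet. Its call with diet in knockouts (-0.49 ± 0.18, adjusted p = 0.0309, limma) is counted among the 23 above and was lost under 9 alternatives and went to 0 in the series matrix.

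On chow, the shared Serpina1c probe read 8.12, 8.02, 8.08, 8.68 and 8.23 in the 5 wild-type mice and 7.64, 7.75, 8.08, 7.77 and 7.82 in the 5 knockouts. On Western diet, the shared Serpina1c probe read 7.87, 7.84, 7.75, 8.14 and 7.95 in wild-type mice and 5.74, 5.67, 6.01, 6.56 and 6.2 in knockouts. The probe was saturated on 8 of 15 arrays outside the knockouts on Western diet and on 0 of 5 inside, and that group lay below all others. Antitrypsin signal by this probe fell with LXR loss on Western diet (adjusted p = 2.22e-08, limma) and with diet in knockouts (adjusted p = 7.38e-08). The measured falls, 1.87 ± 0.16 and 1.78 ± 0.16, are lower limits, since 3 of 5 wild-type arrays on Western diet and 2 of 5 knockout arrays on chow were saturated. The Serpina1b probe, saturated on all arrays but those of knockouts on Western diet, read 6.84, 6.73, 6.97, 7.36 and 6.72 there and 7.97, 7.76, 7.61, 7.89 and 7.94 in wild-type mice. Its fall was at least 1.88-fold with LXR loss (adjusted p = 3.71e-05) and at least 1.97-fold with diet (adjusted p = 2.37e-05). Serpina1f, a paralog known from the epididymis, was above background on 0 of 20 arrays.

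**Figure D4:**
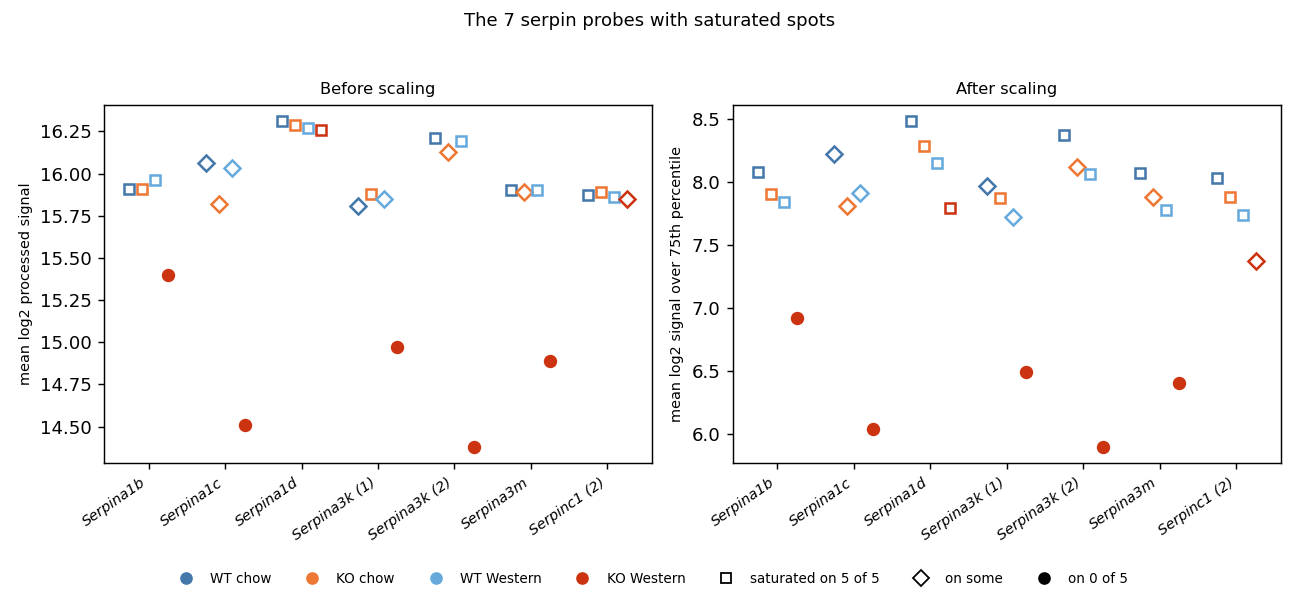
Group means (5 mice each) of the 7 serpin probes with saturated spots, as log2 processed signal before scaling (left) and over the 75th percentile of the array (right); squares and diamonds mark groups with all or some arrays saturated and filled circles those with 0. Serpina1d and the second Serpinc1 probe were flat before scaling and lower in knockouts on Western diet after it, while the other 5 were lower in that group on each scale.

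Serpina6 codes for corticosteroid-binding globulin, the plasma carrier of glucocorticoids (chr12:104047720-104047779, minus strand). On chow, Serpina6 read 4.44, 4.98, 4.83, 4.82 and 4.56 in the 5 wild-type mice and 5.94, 6.03, 5.77, 5.39 and 6.21 in the 5 knockouts. On Western diet, Serpina6 read 4.59, 3.88, 4.32, 4.76 and 4.53 in wild-type mice and 4.38, 2.6, 1.68, 4.05 and 2.09 in knockouts. On chow all knockouts lay above all wild-type mice; on Western diet knockouts 2, 3 and 5 lay below them and knockouts 1 and 4 inside their range. In knockouts Serpina6 rose by 1.14 ± 0.39 on chow (adjusted p = 0.0484, limma), and fell by 1.46 ± 0.39 on Western diet (adjusted p = 0.00363). The chow call was lost in 23 of 35 alternatives, with differences of 1 to 1.26 throughout. Diet lowered it in knockouts by 2.91 ± 0.39, 7.49-fold (adjusted p = 6.69e-06), and gave -0.31 ± 0.39 in wild-type mice (adjusted p = 0.711); the interaction was -2.6 ± 0.55 (adjusted p = 0.00195). Serpina7, thyroxine-binding globulin, the other hormone carrier of the clade and on chromosome X, did not pass the threshold in any of the 5 comparisons by limma. Its group means were 0.67 ± 0.78 and 0.8 ± 0.68 on chow and 0.74 ± 0.79 and 1.26 ± 0.3 on Western diet in wild-type and knockout mice (SD, n = 5), and the Western-diet genotype difference was 0.52 ± 0.4 (adjusted p = 0.278).

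Serpina5, the protein C inhibitor, and its pseudogene-named neighbour Serpina4-ps1 had the largest measured falls of the family with LXR loss on Western diet. On chow, Serpina5 read -2.39, -1.81, -1.49, -0.77 and -1.37 in the 5 wild-type mice and -3.94, -2.08, -1.95, -1.97 and -1.01 in the 5 knockouts. On Western diet, Serpina5 read -0.23, -0.31, -1.27, 0 and -0.34 in wild-type mice and -5.23, -5.12, -5.63, -5.32 and -5.11 in knockouts. Knockouts on Western diet clustered tightly and lay below every other mouse, and 3 of 5 of their arrays were above background. With LXR loss on Western diet Serpina5 fell by 4.85 ± 0.4, 28.9-fold (adjusted p = 1.3e-08, limma), and with diet in knockouts by 3.1 ± 0.4 (adjusted p = 4.17e-06). In wild-type mice the diet difference was 1.14 ± 0.4 (adjusted p = 0.115), and the interaction was -4.23 ± 0.56 (adjusted p = 3.35e-05). A second Serpina5 probe was above background on 5 of 20 arrays, 4 of them from wild-type mice on Western diet. It passed the brightness filter only through that group, so its fall there, at least 2.91-fold (adjusted p = 1.15e-06), adds nothing to that of the first probe. On chow this probe was called lower in knockouts while 1 of 10 arrays was above background, so no fold is given.

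On chow, Serpina4-ps1 read 1.82, 2.48, 3.66, 3.79 and 2.52 in the 5 wild-type mice and -2.69, 0.75, 1.35, 2.8 and 2.45 in the 5 knockouts. On Western diet, Serpina4-ps1 read 2.03, 1.89, 4.74, 3.58 and 1.99 in wild-type mice and -1.82, -6.17, -5.39, -4.82 and -6.74 in knockouts. On Western diet no knockout overlapped a wild-type mouse, and on chow knockout mouse 1 was the lowest of the 10. Just 2 of 5 arrays of knockouts on Western diet were above background, against 5 of 5 in each other group. The fall with LXR loss on Western diet was 7.84 ± 0.97 (adjusted p = 1.83e-06, limma) by this probe and 8.67 ± 1.01 (adjusted p = 8.77e-07) by the other, whose coordinates overlap it. The other probe was above background on 1 of 5 arrays of knockouts on Western diet, and plain normexp gave -4.33 and -3.92 by probe. With diet in knockouts Serpina4-ps1 fell by 5.92 ± 0.97 and 6.68 ± 1.01 (adjusted p = 5.92e-05 and 2.54e-05), though on 1 of 5 slides the sign was opposite, at 0.87 and 0.69.

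On chow, Serpina12 read -0.79, -0.85, 0.07, -0.65 and -0.89 in the 5 wild-type mice and -2.58, -6.63, -1.68, -1.24 and -1.84 in the 5 knockouts. On Western diet, Serpina12 read -1.23, -1.09, -0.98, -1.38 and -1.28 in wild-type mice and -6.53, -4.45, -4.22, -2.94 and -4.26 in knockouts. Serpina12 codes for vaspin. Knockout mouse 2 on chow stood apart from the others, and the knockouts lay below all wild-type mice on each diet. The fall was 3.29 ± 0.76, 9.79-fold, on Western diet (adjusted p = 0.00121, limma), and the chow difference was -2.17 ± 0.76 (adjusted p = 0.0554). The chow difference was negative on each of 4 slides, passed the threshold in 10 of 34 alternatives and was -1.21 without knockout mouse 2. Serpina9, or centerin, known from germinal centre B cells, read -1.46, -1.6, 0.01, -0.02 and -0.03 in wild-type mice and -4.08, -5.23, -5.19, -3.42 and -5.57 in knockouts on Western diet, where 2 of 5 knockout arrays were above background. Its fall was 4.08 ± 0.49 (adjusted p = 1.33e-06), and on chow the genotypes overlapped (-0.3 ± 0.49, adjusted p = 0.716). With plain normexp the Western-diet genotype difference was -1.65 for Serpina9, -1.09 for Serpina12 and -1.88 for Serpina5, all still called. Serpina11 read 3.79, 4.09, 4.76, 4.87 and 4.62 against 3.88, 2.73, 3.1, 2.72 and 3.14 on Western diet, where knockout mouse 1 lay inside the wild-type range, and fell by 1.31 ± 0.25 (adjusted p = 2e-04). Serpina10, the protein Z-dependent inhibitor of factor Xa, fell with diet in wild-type mice by 0.75 ± 0.21 and 0.63 ± 0.17 by probe (adjusted p = 0.0486 and 0.0354) and in knockouts by 0.61 ± 0.21 and 0.67 ± 0.17 (adjusted p = 0.0236 and 0.003). These wild-type calls were lost in 21 of 34 and 12 of 35 alternatives. With LXR loss on Western diet the second Serpina10 probe fell by 0.47 ± 0.17 (adjusted p = 0.0227, limma), a call lost in 6 of 35 alternatives. The first Serpina10 probe, which lists no RefSeq entry, differed by -0.1 ± 0.21 there (adjusted p = 0.712).

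Clade A members are largely hepatocyte genes, some of them with sex-biased levels in mice. Of 15 male-biased genes tested 14 fell with LXR loss on Western diet, with a median of -4.49. Their mean level was 5.78 to 6.26 in wild-type mice and 0.05 to 2.84 in knockouts on Western diet. Of 17 tested hepatocyte markers 9 fell, with a median of -0.43 and mean levels of 6.9 to 7.14 against 6.28 to 6.6; 11 of the 17 probes had saturated spots, 6 of them on every array. Of 15 tested female-biased genes 9 rose and 2 fell in that comparison, with a median of 1.97. Of all probes 24% rose and 33.8% fell there. With LXR loss on chow 11 female-biased genes rose and 1 fell, and 3 male-biased genes fell. Of all probes 10.3% rose and 8.13% fell on chow. The part of these lists in the clade A falls was not tested.

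The plasma inhibitors of clades C, D, F and G were all called lower with LXR loss on Western diet and with diet in knockouts. Serpinc1, antithrombin, the heparin-dependent inhibitor of thrombin and factor Xa, was read by an unsaturated probe whose coordinates span more than its own length (chr1:162832080-162834033, plus strand). On chow, Serpinc1 read 6.23, 6.44, 6.12, 6.68 and 6.33 in the 5 wild-type mice and 5.89, 6.04, 5.93, 6.62 and 6.5 in the 5 knockouts. On Western diet, Serpinc1 read 6.21, 6.28, 6.16, 6.26 and 6.25 in wild-type mice and 4.98, 4.27, 4.36, 5.1 and 4.95 in knockouts. The knockouts on Western diet lay below all others, and the other groups overlapped. Serpinc1 fell by 1.5 ± 0.18, 2.83-fold (adjusted p = 1.02e-06, limma), with genotype and by 1.46 ± 0.18 (adjusted p = 2.07e-06) with diet; the interaction was -1.33 ± 0.25 (adjusted p = 0.000732). The other Serpinc1 probe was saturated on 18 of 20 arrays, 3 of 5 among knockouts on Western diet, and its unscaled group means lay between 15.85 and 15.89, so no fold is given. Its call in that comparison (adjusted p = 0.0409) was lost in 13 of 34 alternatives and went to 0.03 (log2) with quantile normalization.

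On chow, Serping1 read 6.18, 6.63, 5.82, 6.35 and 6.04 in the 5 wild-type mice and 6.01, 5.91, 5.83, 5.82 and 6.21 in the 5 knockouts. On Western diet, Serping1 read 6, 5.98, 5.89, 5.92 and 6.03 in wild-type mice and 5.12, 4.72, 5.04, 5.22 and 5.12 in knockouts. Serping1 is C1 inhibitor, which restrains the first complement proteases, plasma kallikrein and factor XII (chr2:84566650-84568156, minus strand). All 5 knockouts on Western diet lay below all other mice. Serping1 fell by 0.92 ± 0.13 (adjusted p = 1.18e-05, limma) with genotype and by 0.91 ± 0.13 (adjusted p = 1.82e-05) with diet. Its target plasma kallikrein (Klkb1) fell by 1.97 ± 0.23 (adjusted p = 1.03e-06) and Masp2 by 1.49 ± 0.13 (adjusted p = 2.53e-08). Of 11 complement proteases 9 were tested, and 5 fell with LXR loss on Western diet, where 33.8% of all probes fell.

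On chow, Serpinf1 read 7.43, 7.42, 7.49, 7.86 and 7.5 in the 5 wild-type mice and 7.13, 7.23, 7.42, 7.44 and 7.38 in the 5 knockouts. On Western diet, Serpinf1 read 6.91, 6.84, 6.77, 7.32 and 6.93 in wild-type mice and 5.78, 5.79, 5.51, 6.24 and 5.92 in knockouts. Serpinf1, pigment epithelium-derived factor, is an antiangiogenic protein that inhibits no protease (chr11:75226261-75226320, minus strand). On Western diet all wild-type mice lay below those on chow, and all knockouts below them. It fell with diet in wild-type mice by 0.58 ± 0.14 (adjusted p = 0.0153, limma) and in knockouts by 1.47 ± 0.14 (adjusted p = 9.3e-08), with an interaction of -0.89 ± 0.19 (adjusted p = 0.00227). The wild-type call was lost with median scaling, quantile normalization, both normexp corrections and the series matrix, and the second probe gave -0.7 ± 0.21 (adjusted p = 0.0585). That value passed the threshold in 9 of 34 alternatives, with slide as a fixed or random block among them (adjusted p = 0.0242 and 0.024), and was negative on each of 4 slides. The genotype difference on Western diet was -1.11 ± 0.14 and -1.61 ± 0.21 by probe (adjusted p = 1.63e-06 and 2.8e-06).

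Serpinf2, alpha-2-antiplasmin, the main inhibitor of plasmin, and Serpind1, heparin cofactor II, an inhibitor of thrombin, had smaller falls. Serpinf2 read 7.06, 6.95, 6.83, 7.15 and 6.91 in wild-type mice and 6.57, 6.57, 6.47, 6.54 and 6.54 in knockouts on Western diet, without overlap, and fell by 0.44 ± 0.1 (adjusted p = 0.000824, limma). Serpind1 read 6.98, 7.05, 6.8, 7.34 and 6.87 against 6.27, 6.49, 6.35, 6.75 and 6.42, also without overlap, and fell by 0.55 ± 0.12 (adjusted p = 0.000648). With diet in knockouts the falls were 0.59 ± 0.1 for Serpinf2 (adjusted p = 7.19e-05) and 0.57 ± 0.12 for Serpind1 (adjusted p = 0.00058). All 4 calls were lost with quantile normalization, with plain normexp and in the series matrix, and the Western-diet genotype differences shrank to as little as -0.07 and -0.13. Before scaling the signals were near constant. In wild-type and knockout mice on chow and on Western diet, the unscaled means were 15.18, 15.14, 15.11 and 15.02 for Serpinf2. Those of Serpind1 were 14.95, 15.04, 15.13 and 14.93.

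**Figure D5:**
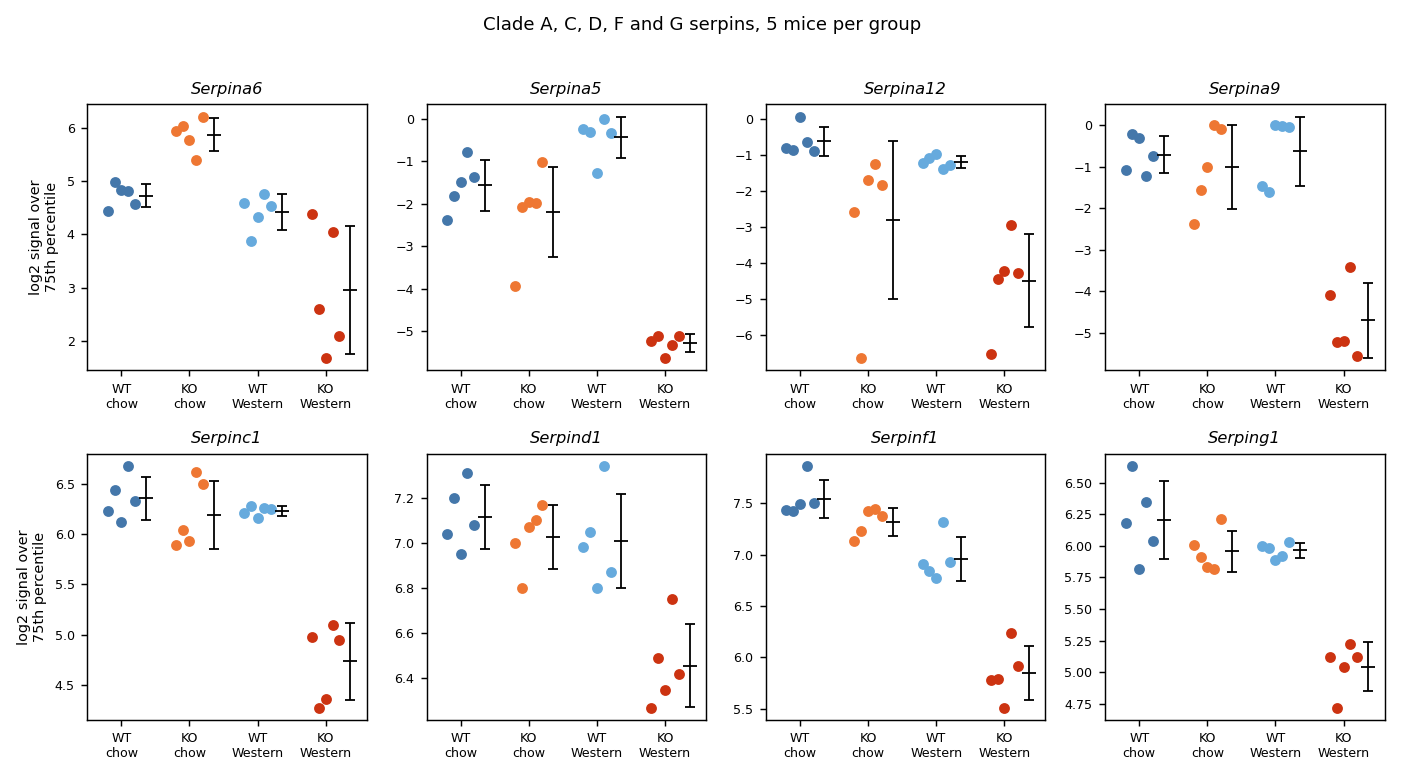
Each point is a mouse, the y axis is log2 signal over the 75th percentile of the array, and bars give the mean and SD of 5 mice per group. All 8 serpins had their lowest group mean in knockouts on Western diet, and Serpina6 was higher in knockouts than in wild-type mice on chow.

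On chow, Serpini1 read -6.54, -5.72, -4.98, -5.3 and -4.96 in the 5 wild-type mice and -4, -4.45, -4, -4.52 and -4.18 in the 5 knockouts. On Western diet, Serpini1 read -4.95, -4.77, -5.74, -6.17 and -5.09 in wild-type mice and -3.86, -3.34, -4.04, -4.45 and -4.31 in knockouts. Serpini1, neuroserpin, inhibits tissue plasminogen activator in the nervous system (chr3:75728128-75728187, plus strand). The knockouts lay above the wild-type mice on each diet, and its probe was above background on 3 of 10 wild-type and 10 of 10 knockout arrays, so it was tested through the knockouts alone. It rose with LXR loss by 1.27 ± 0.31 on chow (adjusted p = 0.00683, limma) and by 1.34 ± 0.31 on Western diet (adjusted p = 0.00102). The chow call was lost under both normexp corrections and in the series matrix, and the Western-diet value went to -0.23 and 0 under the normexp corrections.

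The 27 probes that were not tested were above background on at most 3 of 5 arrays of a group, and 15 of them on 0 of 20 arrays. They included the clade B genes Serpinb3a, Serpinb3b, Serpinb3d, Serpinb5, Serpinb7, Serpinb11, Serpinb12 and Serpinb13, several of them known from skin and other epithelia, and the granzyme inhibitor copies Serpinb9b to Serpinb9g. The Serpinb9f and Serpinb9g probes list each other's RefSeq entries, and the Serpinb3b probe lists Serpinb3a. The Serpinb12 probe with the most detections was above background on 3 of 5 arrays of knockouts on Western diet and on 0 of 15 others, and Serpinb9e on 9 of 20 arrays spread over the 4 groups. Pancreatic Serpini2 was above background on 2 of 20 arrays. For these genes the arrays give only an upper bound, since a dim probe does not show that a gene is silent. Also untested were the other probes of Serpinb6a, Serpinb10, Serpinb1c and Serpinb3c, each above background on 0 of 20 arrays.

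The slides carried several groups each, so the differences were also taken within slides. Of called probes, the within-slide difference had the sign of the fit on every slide that held both groups for 34 of 36 in the Western-diet genotype comparison (4 slides), 30 of 33 for diet in knockouts (5 slides), 7 of 10 for genotype on chow (4 slides) and 5 of 5 for diet in wild-type mice (4 slides). The calls for diet in wild-type mice were Serpina3n, Serpinf1, Serpinf2 and both Serpina10 probes. Of the 110 called values over the 5 comparisons, 41 held under every alternative that could be computed. Plain normexp ended 59 calls, and normexp with outlier spots kept out of its fit ended 24. Plain normexp also ended the genotype calls on Western diet and the diet calls in knockouts of Serpina1b and Serping1, the Western-diet genotype call of Serpina6 and the diet call of Serpinb8.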

How the data were processed

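Liver RNA of 20 mice was read on single-colour (Cy3) arrays on 6 slides. The authors deposited scanner output from Agilent Feature Extraction 9.5.3.1, per the file headers, as intensity: background-subtracted and detrended signal, not normalized between arrays. A deposited series matrix holds log2 values of 24493 probes (44 serpin probes); its normalization is not given in the sources used here, and on each array it correlated with the scanner values (lowest r 0.974), so it served as an alternative only.

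The log2 signal was scaled to the 75th percentile of each array. Control spots and outlier spots were left out (1 serpin value). The 26130 probes that 4 or 5 arrays of some group called well above background were fitted as 4 group means with limma 3.58.1 in R 4.3.3 (16 residual degrees of freedom), with Benjamini-Hochberg adjustment within each of the 5 comparisons. The fit was tested on simulated data. Every serpin probe has 1 spot. Of the members counted, 1 gene is not reported here on its own. The number of arrays limits the precision, and the p-values set each difference against the spread between mice, each on its own array. For saturated and dim probes that spread need not show how the mice differ in RNA level.

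The serpins and the lists of related genes and cell markers were chosen with earlier results of these data known. Values by mouse are given for members with an adjusted p under 0.05 and at least a 2-fold difference, and for major hepatocyte products. Of each related list up to 4 genes with the largest differences were to be named; Plod2, Plg, Klkb1, Masp2, Ctsg, Gzmb, Hspa1a and P3h1 were named after their values were seen, as partners of the serpins described. Alternatives changed the scaling, background correction, filters, outlier and saturated spots, blocks, moderation, groups in the fit and probe choice, used the series matrix, or left out each array. Same-numbered mice were not paired: their deviations from the group means correlated with r from -0.339 to 0.431.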

Additional observations from a re-analysis of the deposited data

Results flagged for a closer look

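In 13 of 160 groups of tested serpin probes and mice, 1 mouse stood apart from the other 4 by Dixon's criterion, and chance flags about 1 in 20 groups. The values given here were Serpina11 at 4.56 in knockout mouse 2 on chow, Serpina12 at 0.07 in wild-type mouse 3 on chow, Serpina12 at -6.63 in knockout mouse 2 on chow and Serpina1d at 9.1 in wild-type mouse 4 on chow. They also included Serpina3g at 1.21 in wild-type mouse 2 on chow, Serpina3m at 8.53 in wild-type mouse 4 on chow, Serpina5 at -1.27 in wild-type mouse 3 on Western diet, Serpina7 at 2.11 in wild-type mouse 2 on Western diet and Serpinb6c at -6.05 in wild-type mouse 4 on Western diet. The last were Serpinc1 at 8.51 in wild-type mouse 4 on chow, Serpinf1 at 7.86 in wild-type mouse 4 on chow and Serpinf2 at 7.02 in wild-type mouse 3 on chow.

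The change with Western diet differed between knockout and wild-type mice for the probes given here by the interaction term of the limma fit, given as the knockout change minus the wild-type change (log2). It was positive for Serpina3n 0.86, Serpinb2 3.19 and 3.44 by probe, Serpinb6a 2.57, Serpinb6b 2.62, Serpinb6c 2.91, Serpinb8 1.55 and Serpinh1 1.98. It was negative for Serpina11 -1.31, Serpina1b -0.74, Serpina1c -1.46, Serpina3k -1.13 and -1.91 by probe, Serpina3m -1.18 and Serpina4-ps1 -5.91 and -6.74 by probe. Negative values were also found for Serpina5 -4.23 and -2.16 by probe, Serpina6 -2.6, Serpina9 -3.78, Serpinc1 -1.33, Serpind1 -0.46, Serpinf1 -0.89 and -1.36 by probe and Serping1 -0.67. The Serpinb2 values are no measured sizes, since its probes were not above background in 3 of 4 groups, and the second Serpina5 probe had 0 of 5 arrays above background in 2 groups. Those of Serpina1b, Serpina1c, Serpina3k and Serpina3m rest on groups with saturated spots, so the change with diet in wild-type mice has no measured size there. The values of Serpina1c, Serpina3k and Serpina3m were lost with plain normexp, and that of Serpina1b also with median scaling. Those of Serpina3k and the second Serpina5 probe were lost with both normexp corrections. The Serpind1 value (adjusted p = 0.0488, limma) was lost in 21 of 34 alternatives. That of Serping1 was lost with median scaling, quantile normalization, plain normexp and in the series matrix. Plain normexp also ended those of Serpina11, Serpina3n, Serpina4-ps1, Serpina6, Serpinb6c, Serpinb8, Serpinc1 and Serpinf1.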

How the results depend on the processing

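Counts are of the 46 tested serpin probes. On chow, the 8 that rose with LXR loss became 5 with median scaling, 0 with plain normexp, 1 with normexp fitted without outlier spots (an alternative chosen after seeing the data) and 3 with probes above background on all 20 arrays. The 2 that fell became 0 with plain normexp and with the 20-array filter, and 1 in the series matrix, with 1 probe per gene and with only the groups compared. On Western diet the 14 that rose became 7 with plain normexp and 6 with the 20-array filter, and the 22 that fell became 13 with plain normexp. Diet in wild-type mice gave 5 that fell; this was 0 with median scaling and plain normexp, 2 with quantile normalization and without a filter, and 3 with the added normexp, the series matrix and only the groups compared. Diet in knockouts gave 4 that rose and 13 that fell with plain normexp, and 5 that rose with the 20-array filter. The interaction gave 3 upward and 2 downward with plain normexp, 5 upward with the 20-array filter and 11 downward with the added normexp.

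With the replicate block, 7 rose and 4 fell on chow, 14 and 22 on Western diet, 0 and 4 with diet in wild-type mice, 11 and 22 with diet in knockouts, and 9 and 17 in the interaction. The random slide block also gave 4 that fell on chow. Leaving out 1 array gave 6 to 8 that rose and 1 to 4 that fell on chow (1 without wild-type mouse 2, 4 or 5 or knockout mouse 1 or 2 on chow, and 4 without knockout mouse 4 on Western diet). On Western diet it gave 14 to 14 and 19 to 23. For diet in wild-type mice it gave 0 to 1 that rose (1 without wild-type or knockout mouse 1 on chow) and 2 to 5 that fell (2 without wild-type mouse 1, 2 or 5 on chow or 2, 3 or 5 on Western diet, and 3 without wild-type mouse 4 on chow). For diet in knockouts it gave 9 to 11 and 21 to 23, and for the interaction 8 to 9 and 16 to 18.

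Of 110 called values, 12 changed sign or went to 0. Plain normexp turned the first Serpinb2 probe to -0.12 (genotype on Western diet), -0.23 (diet in knockouts) and -0.2 (interaction), and the second to -0.12, -0.27 and -0.18. It also turned the second Serpina5 probe to 0.04 (genotype on chow), Serpinb9 to -0.07 (diet in knockouts) and Serpini1 to -0.23 (genotype on Western diet). The added normexp gave 0 for the second Serpinb2 probe (diet in knockouts) and for Serpini1 (genotype on Western diet). Quantile normalization gave 0.03 and 0.01 for the saturated Serpinc1 probe (genotype on Western diet and diet in knockouts), and the series matrix gave 0 for Serpina1d (diet in knockouts). The cause was not tested. The 5% quantile of plain normexp values ranged from 5.84 to 9.24 over arrays, against 5.8 to 5.84 with the added fit. Median scaling moved the median of all probes from -0.17 to -0.3 for genotype on Western diet and from -0.03 to 0.08 for diet in wild-type mice. Signal over background limits Serpinb2, Serpinb10, Serpine2 and the second Serpina5 probe to lower bounds, and saturation limits the Serpina1, Serpina3k, Serpina3m and second Serpinc1 probes.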
